A study of Mus musculus with 15 samples.

Results

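The genes described here are the axon guidance ligands and receptors: semaphorins, plexins, neuropilins, Slits, Robos, ephrins, Eph receptors, netrins and Unc5 receptors. They were chosen by the start of their symbol (Sema, Plxn, Nrp and a digit, Slit, Robo, Epha, Ephb, Efna, Efnb, Ntn and a digit, or Unc5), which gave 40 of the 10222 gene symbols listed, held by 59 of 12698 transcripts. Of these, 19 were ligands (11 semaphorins, 2 Slits, 2 netrins and 4 ephrins) and 20 were receptors (6 plexins, 2 neuropilins, 3 Robos, 2 Unc5 receptors, 4 EphA and 3 EphB). The last one, Unc50, is not a guidance receptor and came in through its spelling alone. RNA was sequenced from 5 flow-sorted populations of C57BL/6 mice carrying an Il33-citrine reporter, heterozygous according to the design text, with 3 libraries of each from independent experiments. Stromal cells lacking CD45, EpCAM, CD31 and CD24 and positive for PDGFRα, CD34, Sca1 and Podoplanin were split by citrine into Il33+ and Il33- WAT-MSC, labelled mesenteric, and lung Il33+ MSC were the third stromal population. CD31+ endothelial cells came from WAT (white adipose tissue) and EpCAM+ epithelial cells from lung. The reporter marks transcription of Il33 and was present in all groups, and no treatment, age or sex is given in the labels. Levels are in RPKM, reads scaled by transcript length and by the mapped reads of the library, summed over the transcripts of a symbol, and are given as mean ± SD of 3 libraries.

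Guidance molecules steer growing axons by attraction or repulsion, and the same ligand and receptor families pattern blood and lymphatic vessels. Class 3 semaphorins are secreted and act through neuropilins and plexins, Slits bind Robo receptors, netrins bind Dcc and Unc5 receptors, and ephrins sit on the membrane of one cell and bind Eph receptors on its neighbour. Ephrin-B2 and its receptor EphB4 are classical markers of arterial and venous endothelium.

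The libraries held from 42711843 to 60773158 alignments, run on 2 sequencing lanes. Defining markers fell where the labels place them: all 12 endothelial markers were highest in the CD31+ cells and all 10 epithelial markers in the EpCAM+ cells, whereas all 8 stromal markers were highest in an MSC population. The endothelial libraries also held stromal transcripts, with a median of 30.2%, 32.4% and 57.0% of the Il33+ WAT-MSC level in replicates 1, 2 and 3, and 7 of 8 mural cell markers were highest there. Endothelial replicate 1 stood apart, with 11.02% of genes listed at 0 against 1.63 to 7.03% in the other 14 libraries, and with 13 members under 0.5 RPKM against 2 and 3 in the other endothelial libraries. For example, Plxnb2 was 0.22, 8.69 and 12.3 RPKM in the 3 endothelial libraries. In these bulk samples, fewer cells of a type and less RNA per cell cannot be told apart.

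The promoters of 2 ligand and receptor pairs are shown because the data set them side by side: Efnb2 and Ephb4 were highest in the same population, and Sema3e and Plxnd1 in different ones. Each is the 250 bases before a RefSeq transcript start on GRCm38.p6, written 5′ to 3′ on the strand of the gene. For Efnb2, Ephb4 and Sema3e the window ends where the gene begins, whereas that of Plxnd1 lies inside the gene, whose RefSeq span of chr6:115954811-115995339 begins further upstream. Capitals mark every match to GGGCGG or its reverse complement CCGCCC, the core of a GC box, and to AGGAAG or CTTCCT, a core bound by ETS-type factors.
Efnb2 promoter, chr8:8661243-8661492, minus strand: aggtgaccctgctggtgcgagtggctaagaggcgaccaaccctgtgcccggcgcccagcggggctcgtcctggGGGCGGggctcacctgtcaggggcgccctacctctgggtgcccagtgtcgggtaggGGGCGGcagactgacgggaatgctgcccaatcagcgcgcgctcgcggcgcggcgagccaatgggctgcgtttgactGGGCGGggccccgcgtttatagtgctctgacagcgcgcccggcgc
Ephb4 promoter, chr5:137349859-137350108, plus strand: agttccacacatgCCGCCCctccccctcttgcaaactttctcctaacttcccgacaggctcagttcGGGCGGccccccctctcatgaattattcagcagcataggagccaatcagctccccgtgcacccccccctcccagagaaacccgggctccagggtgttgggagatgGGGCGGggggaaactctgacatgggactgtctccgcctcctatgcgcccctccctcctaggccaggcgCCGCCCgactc
Sema3e promoter, chr5:14025026-14025275, plus strand: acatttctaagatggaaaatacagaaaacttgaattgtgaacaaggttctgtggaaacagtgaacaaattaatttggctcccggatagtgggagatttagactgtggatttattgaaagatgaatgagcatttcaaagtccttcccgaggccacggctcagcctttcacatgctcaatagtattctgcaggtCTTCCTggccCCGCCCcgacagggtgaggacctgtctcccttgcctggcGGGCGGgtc
Plxnd1 promoter, chr6:115995006-115995255, minus strand: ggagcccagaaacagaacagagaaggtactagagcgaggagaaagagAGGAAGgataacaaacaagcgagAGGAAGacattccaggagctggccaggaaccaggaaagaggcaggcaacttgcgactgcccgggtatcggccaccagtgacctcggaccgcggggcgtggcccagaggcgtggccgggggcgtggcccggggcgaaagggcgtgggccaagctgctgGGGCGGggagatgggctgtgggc

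Efnb2 held 3 GC box cores and Ephb4 4, and neither held the ETS-type core. Sema3e held 2 GC box cores and 1 ETS-type core, and Plxnd1 held 1 and 2. Among the 34 members with a RefSeq promoter, 26 held the GC box core in this window, compared with 57.9% of the 9854 promoters of listed genes and 32.7% of all 32851 promoters. The ETS-type core was in 11 of the 34, compared with 28.1% and 29.5%. No match of one motif shared a letter with a match of the other in these promoters, and a match describes the sequence only.

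Slit3, a secreted Robo ligand, led the family in every population but the epithelium. It reached 139, 91.0 and 149.7 RPKM in Il33+ WAT-MSC, 84.0, 138.8 and 153.3 in Il33- WAT-MSC and 130.6, 170.2 and 141.5 in lung Il33+ MSC. It was 30.4, 55.8 and 90.2 RPKM in WAT endothelium and 5.94, 4.99 and 6.37 in lung epithelium. The 3 stromal populations overlapped, all but the highest endothelial library lay below every stromal library, and the epithelial libraries lay below all others. Slit3 made up 27.4 to 44.0% of the summed RPKM of the 40 members in the stromal libraries, 9.65 to 20.2% in the endothelial ones and 3.54 to 5.72% in the epithelial ones. That sum was 267.9 to 441.9 RPKM in the stromal libraries, 315.4 to 446.2 in the endothelial libraries and 103.8 to 141.1 in the epithelial libraries, which did not overlap with the rest.

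**Figure D1:**
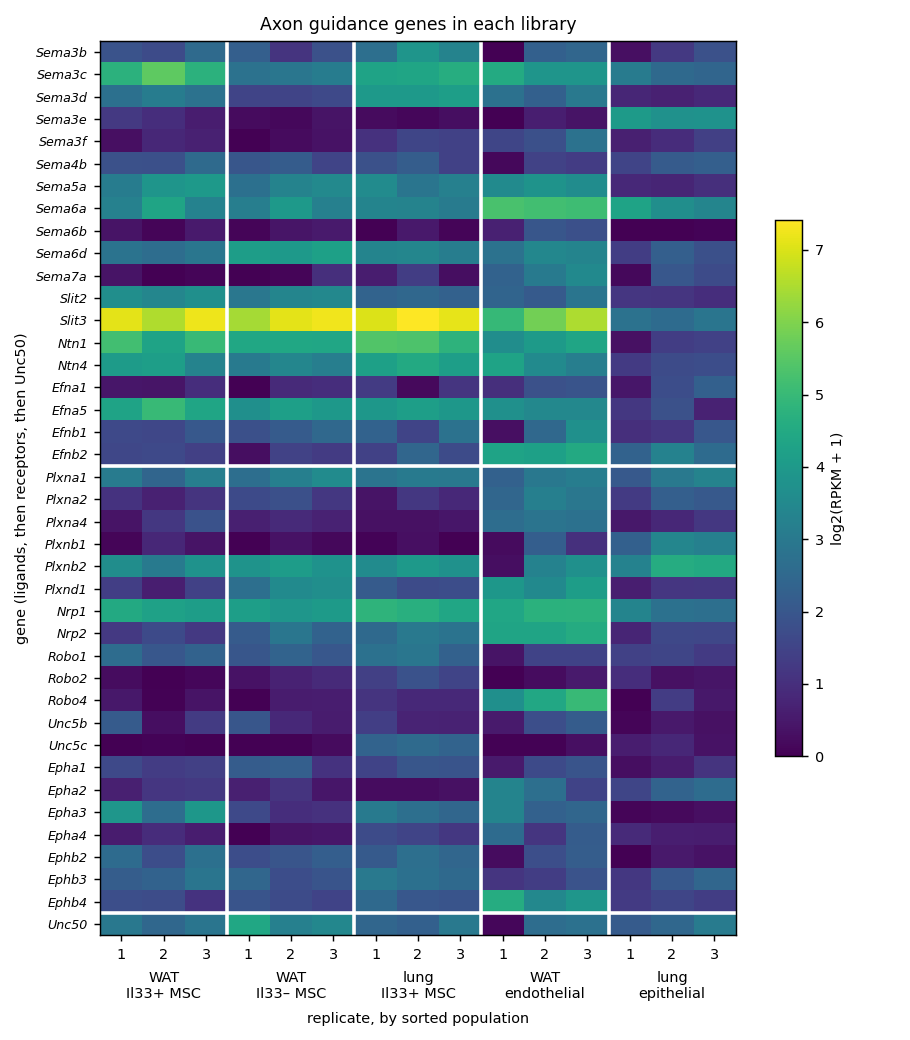
The heat map shows log2(RPKM + 1) of the 40 genes (rows, ligands then receptors then Unc50) in the 15 libraries (columns, 3 of each sorted population). Slit3 is the brightest row across the stromal libraries, and the block of Efnb2, Ephb4, Nrp2, Robo4 and Sema7a is bright in the endothelial libraries.

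Of the 40 members, 15 had their highest mean in the endothelium, 11 in lung Il33+ MSC, 6 in Il33+ WAT-MSC, 4 in Il33- WAT-MSC and 4 in the epithelium. Over all genes these shares were 20.2%, 14.3%, 16%, 20.9% and 28.6% in the same order. For 19 members the 3 libraries of 1 population lay above the other 12, which held for 22.1% of all genes. They were 9 in the endothelium (3.75% of all genes: Efnb2, Ephb4, Nrp2, Plxna2, Plxna4, Robo4, Sema6a, Sema6b and Sema7a) and 4 in lung Il33+ MSC (2.96%: Robo2, Sema3b, Sema3d and Unc5c). The others were Efna5 and Sema3c in Il33+ WAT-MSC (0.851%), Sema6d and Unc50 in Il33- WAT-MSC (2%), and Plxnb1 and Sema3e in the epithelium (12.5%).

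Among the ligands, the netrins and Efna5 also had their highest means in stroma, though the endothelial values of Ntn4 lay within the stromal range. Ntn1, the founding secreted netrin, was 28.2 ± 8.41 RPKM in Il33+ WAT-MSC, 20.4 ± 0.136 in Il33- WAT-MSC, 36.1 ± 8.2 in lung Il33+ MSC, 15.4 ± 4.08 in endothelium and 1.19 ± 0.806 in epithelium. Ntn4, a netrin that also associates with basement membrane laminins, was 13.9 ± 4.31, 8.29 ± 1.16, 18.7 ± 2.72, 12.6 ± 5.61 and 2.00 ± 0.533 RPKM in the same order. Only the epithelial libraries lay apart from the rest for these netrins. Efna5, a membrane-anchored ligand of EphA receptors, was 18.6, 31.0 and 19.7 RPKM in Il33+ WAT-MSC, and no library of the other populations exceeded 17.2. The other ephrins were lower in stroma: Efna1 did not exceed 1.46 RPKM and Efnb1 did not exceed 5.90 in any stromal library.

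**Figure D2:**
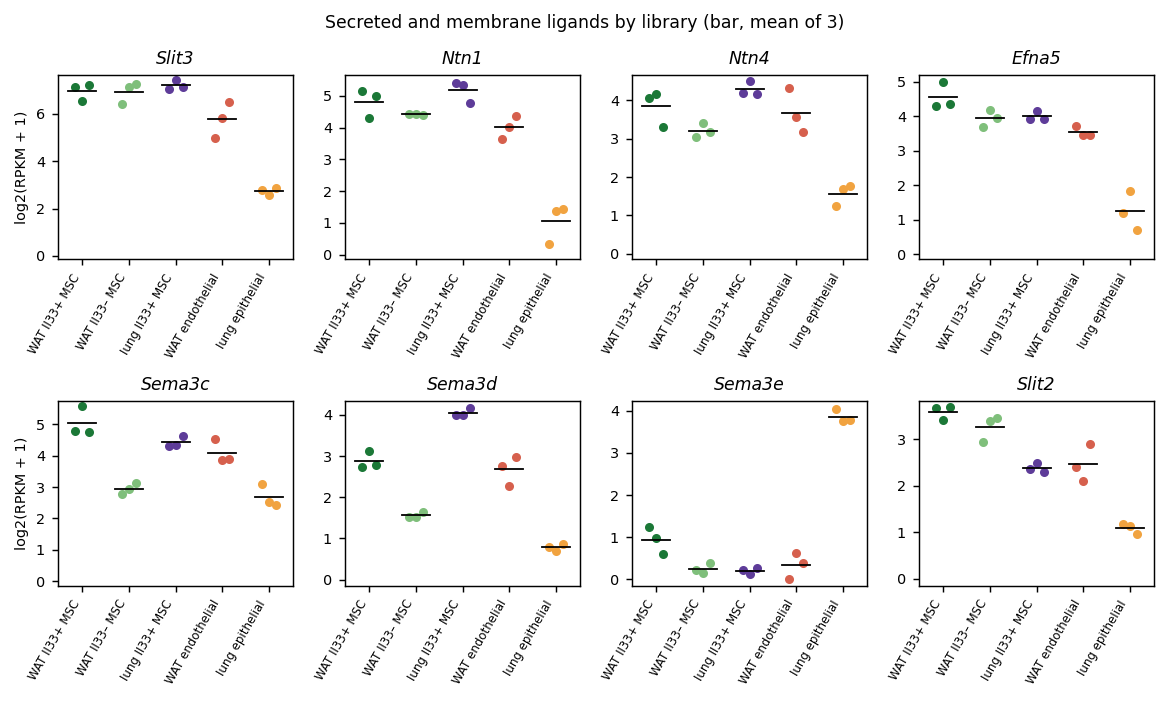
Each panel shows 1 ligand as log2(RPKM + 1) in the 3 libraries (points) of each population, with the mean as a bar. Slit3, Ntn1, Ntn4 and Efna5 are lowest in the epithelium, Sema3c is highest in Il33+ WAT-MSC, Sema3d in lung Il33+ MSC and Sema3e in the epithelium.

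Il33+ and Il33- WAT-MSC were compared to see which guidance genes differ with the citrine reporter within one tissue. Sema3c and the receptor Epha3 were higher in Il33+ cells, and the plexin Plxnd1 and the semaphorin Sema6d were lower. Sema3c, a secreted semaphorin that acts through neuropilins, was 26.4, 47.2 and 26.2 RPKM in Il33+ WAT-MSC and 5.88, 6.58 and 7.69 in Il33- WAT-MSC. The groups were well separated, with a log2 fold change of 2.10 (SE 0.285) and an adjusted p of 0.00462 by limma. Epha3, a receptor for A-type ephrins including the product of Efna5, was 13.99, 5.34 and 14.1 RPKM against 2.13, 0.96 and 1.09, again without overlap (log2 fold change 2.27, SE 0.401, adjusted p = 0.0173 by limma). Its ligand gene Efna5 was also higher in each Il33+ library than in any Il33- library, but did not pass the test (log2 fold change 0.61, adjusted p = 0.416 by limma). Sema3d, another secreted semaphorin, was 5.63, 7.67 and 5.88 RPKM against 1.89, 1.87 and 2.12. Its libraries did not overlap and its adjusted p missed the threshold of 0.05 (log2 fold change 1.31, limma adjusted p = 0.0634).

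Plxnd1, the receptor of Sema3e, was 1.58, 0.53 and 1.69 RPKM in Il33+ WAT-MSC and 5.57, 10.6 and 11.6 in Il33- WAT-MSC. Every Il33- library lay above every Il33+ library (log2 fold change -2.17, SE 0.378, limma adjusted p = 0.0166). Sema6d, a transmembrane semaphorin that binds plexin A1, was 6.05, 5.23 and 6.55 RPKM against 16.6, 14.7 and 17.8, with no overlap (log2 fold change -1.32, SE 0.251, limma adjusted p = 0.026). Nrp2, the neuropilin best known from veins and lymphatics, was 1.62 ± 0.485 RPKM in Il33+ and 4.66 ± 1.69 in Il33- WAT-MSC and did not pass the test (log2 fold change -1.08, limma adjusted p = 0.22). The abundant Slit3 gave a log2 fold change of 0.03 (95% interval -0.60 to 0.66), a sign that turned under other settings.

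Of the 40 members 29 could be tested in this comparison, with at least 1 RPKM in at least 3 of the 6 libraries, and 4 passed, 2 higher and 2 lower, in a comparison that called 1.57% of all genes (0.923% higher and 0.651% lower). The median log2 fold change of the tested members was 0.19, against -0.006 over all genes. Sema3c passed under each of the 15 alternatives tried. The calls of Epha3, Plxnd1 and Sema6d were lost without the filter on low values (limma adjusted p = 0.098, 0.0864 and 0.0519), and that of Sema6d also with the most abundant transcript in place of the sum (0.0768). Epha3 lost its call without Il33+ replicate 1 or 3 or Il33- replicate 2 or 3, with adjusted p from 0.0621 to 0.0965 by limma, and Plxnd1 lost it without Il33+ replicate 1 or Il33- replicate 2 or 3 (0.0502 to 0.0885), while Sema6d lost it without any one of the libraries except Il33- replicate 1 (0.0627 to 0.127). The summed level of 6 mesothelial markers was 32.3, 87.8 and 99.7 RPKM in Il33+ and 20.4 to 29.0 in Il33- WAT-MSC, and 5 lymphatic endothelial markers summed to 1.47 to 7.43 and 4.24 to 20.5, none of them at 0 throughout a population. The 5 leukocyte markers summed to 12.2, 9.71 and 27.8 RPKM in Il33+ and 36.0, 77.5 and 53.6 in Il33- WAT-MSC, without overlap. Plxnd1 and Sema6d were higher in the same population. Different genes led the leukocyte sum in the Il33- libraries. Cd68 was 32.0, 5.51 and 10.3 RPKM there, and Cd74 was 0.59, 45.4 and 36.8. Cd52 and Tyrobp had means of 0.117 and 0.387 RPKM in Il33+ and 0.133 and 0.103 in Il33- WAT-MSC. The part of these cells in the differences was not tested. The 12 endothelial markers summed to 24.3 to 47.9 RPKM in Il33+ cells and 14.1 to 31.2 in Il33- cells, which overlapped, and their part was not tested either.

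Il33+ stromal cells of WAT and lung were compared next, and lung cells carried more of 4 members while WAT cells carried more of 1. This comparison and those with Il33- WAT-MSC and with endothelium share the Il33+ WAT-MSC libraries. Unc5c, a netrin receptor, was 0, 0.05 and 0.02 RPKM in Il33+ WAT-MSC and 4.19, 4.88 and 4.12 in lung Il33+ MSC. It did not exceed 0.77 RPKM in any library of the other 3 populations either, so that only the lung stromal cells carried it at a level above 1 RPKM (log2 fold change -2.40, SE 0.276, limma adjusted p = 0.000675). Robo2, a Slit receptor, was 0.19, 0.01 and 0.10 RPKM in WAT and 1.63, 2.64 and 1.85 in lung (log2 fold change -1.46, SE 0.293, limma adjusted p = 0.0144). Nrp2 was 1.34, 2.18 and 1.34 RPKM in WAT and 4.75, 7 and 6.15 in lung (log2 fold change -1.41, SE 0.284, limma adjusted p = 0.0143). None of these receptors overlapped between the tissues.

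Among the ligands, Sema3d was 5.63, 7.67 and 5.88 RPKM in WAT and 15.1, 14.9 and 17.0 in lung Il33+ MSC (log2 fold change -1.18, SE 0.22, limma adjusted p = 0.0101). Sema3b, a related secreted semaphorin named here after its values were seen, was 2.70, 2.21 and 4.87 RPKM against 5.50, 13.6 and 8.93. These sums did not overlap and did not pass the test (log2 fold change -1.25, limma adjusted p = 0.0729). Much of the lung sum came from a non-coding RefSeq transcript, at 3.45, 10.45 and 6.03 RPKM. The coding transcript was 0.83, 0.68 and 3.22 RPKM in WAT and 2.05, 3.14 and 2.90 in lung, which overlapped. Slit2 went the other way, with 11.6, 9.65 and 11.9 RPKM in WAT and 4.09, 4.57 and 3.89 in lung (log2 fold change 1.21, SE 0.229, limma adjusted p = 0.0106). The paralog Slit3 differed by less than the spread between libraries, with a log2 fold change of -0.24 (95% interval -0.74 to 0.26), and the libraries of the 2 tissues overlapped. Sema3c was 20.6 ± 2.58 RPKM in lung against 33.3 ± 12.1 in WAT and did not pass (log2 fold change 0.62, limma adjusted p = 0.24).

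Of the 32 members tested 5 passed, in a comparison that called 6% of all genes (2.5% higher and 3.5% lower in WAT), and the median log2 fold change was -0.33 against 0.03 over all genes. Unc5c passed under each of the 14 alternatives in which it could be tested. The call was lost for Nrp2 and Robo2 without Il33+ WAT-MSC replicate 3 (limma adjusted p = 0.0536 and 0.0529), for Nrp2, Robo2 and Sema3d without lung replicate 2 (0.094, 0.07 and 0.0539), and for Nrp2 without lung replicate 3 (0.0687). With the most abundant transcript in place of the sum, Slit2 and Nrp2 lost their calls (log2 fold changes of 0.96 and -1.03, limma adjusted p = 0.0752 and 0.0821). Lung Il33+ MSC also held more leukocyte marker RNA, 188 to 196 RPKM over 5 markers against 9.71 to 27.8. Lyz2 and Cd74 led this sum in lung, with means of 126.5 and 47.1 RPKM. Mesothelial transcripts were fewer there, 1.35 to 4.06 RPKM against 32.3 to 99.7. The 12 endothelial markers summed to 50.9 to 79.1 RPKM in lung and 24.3 to 47.9 in WAT Il33+ MSC, without overlap. The 10 epithelial markers summed to 179 to 544 and 73.2 to 145, again without overlap, and Cldn7 was at 0 in all 3 WAT libraries. Scgb1a1 alone was 71.2, 78.3 and 134.2 RPKM in WAT and 72.9, 200.3 and 492.9 in lung, beside a mean of 1.827e+05 RPKM in lung epithelium. Epcam and Sftpc had means of 0.117 and 0.683 RPKM in WAT and 0.11 and 53.8 in lung. The source of these marker transcripts and its part in the differences were not tested.

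WAT endothelial cells were compared with Il33+ WAT-MSC, and 8 members were higher in endothelium. The labels call the stromal cells mesenteric and name no fat pad for the endothelial cells. Robo4, the endothelial Robo, was 12.1, 20.9 and 31.0 RPKM in endothelium and 0.39, 0.04 and 0.32 in Il33+ WAT-MSC (log2 fold change 4.08, SE 0.44, limma adjusted p = 0.0015). No library outside the endothelium exceeded 1.48 RPKM. Nrp2, the co-receptor of Sema3c and Sema3f, was 19.3, 19.1 and 22.5 RPKM against 1.34, 2.18 and 1.34 (log2 fold change 3.04, SE 0.336, limma adjusted p = 0.00162). Nrp1, its paralog, was found in all 5 populations, with 24.0 ± 3.60 RPKM in endothelium, 18.7 ± 2.68 in Il33+ WAT-MSC and 24.1 ± 3.70 in lung Il33+ MSC, and these ranges overlapped (log2 fold change 0.34 between endothelium and Il33+ WAT-MSC, 95% interval -0.28 to 0.96).

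Efnb2 was 18.9, 17.7 and 21.9 RPKM in endothelium and 2.01, 2.10 and 1.64 in Il33+ WAT-MSC (log2 fold change 2.81, SE 0.323, limma adjusted p = 0.00179). Its receptor gene Ephb4 was 23.1, 9.95 and 13.8 RPKM against 2.43, 2.30 and 1.13 (log2 fold change 2.45, SE 0.421, limma adjusted p = 0.014). Both members of this arterial and venous pair, whose promoters are printed above, were thus separated from the stroma in each library. The sort by CD31 does not separate arterial, venous, capillary and lymphatic cells, and these libraries do not tell which of them carried the transcripts.

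Plxnd1 was 14.2, 10.4 and 16.7 RPKM against 1.58, 0.53 and 1.69 (log2 fold change 2.72, SE 0.404, limma adjusted p = 0.00704). Sema7a, a semaphorin linked to the membrane by a lipid anchor, was 4.04, 7.41 and 10.4 RPKM against 0.32, 0 and 0.07 (log2 fold change 2.81, SE 0.444, limma adjusted p = 0.00935). The transmembrane semaphorin Sema6a and its receptor Plxna2 were also higher in endothelium. Sema6a was 38.3, 35.2 and 33.8 RPKM against 8.50, 19.2 and 8.82 (log2 fold change 1.57, SE 0.349, limma adjusted p = 0.0438), and Plxna2 was 4.46, 8.16 and 6.73 against 1.14, 0.61 and 1.16 (log2 fold change 1.90, SE 0.408, limma adjusted p = 0.0377). Neither pair of groups overlapped. Plxna4, named after its values were seen, was 5.23, 6.19 and 5.81 RPKM against 0.30, 1.28 and 2.66, with a limma adjusted p of 0.123.

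**Figure D3:**
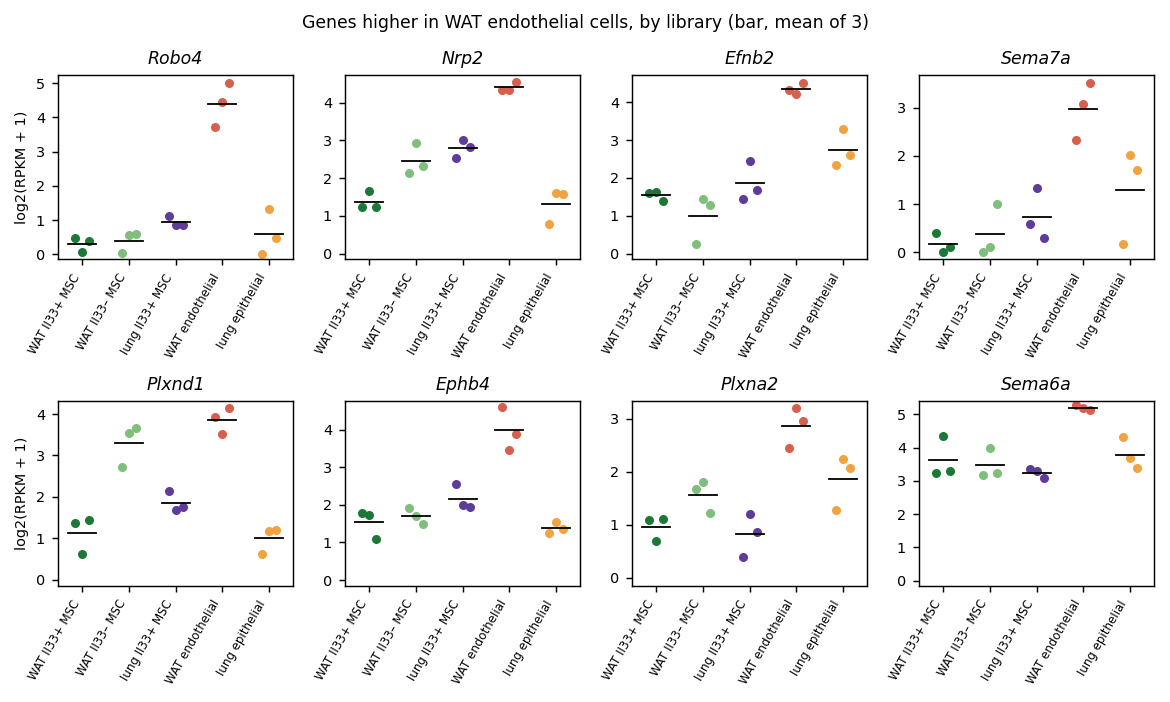
Each panel shows 1 of the 8 genes higher in WAT endothelial cells than in Il33+ WAT-MSC as log2(RPKM + 1), with a point for each library and a bar for the mean. The endothelial points lie above all points of Il33+ WAT-MSC in each panel, and Plxnd1 in Il33- WAT-MSC reaches 11.6 RPKM.

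Of the 34 members tested 8 passed, 5 receptors and 3 ligands, where 3.9% of all genes were called and 3.34% were called higher and 0.565% lower. No member was called lower by limma (0 of 34), and 7 were lower and 12 higher at an unadjusted p under 0.05. Among the ligands abundant in stroma, values for Slit3, Slit2, Efna5 and Sema3c lay below those of Il33+ WAT-MSC in every endothelial library without passing. Slit3 was 58.8 ± 30.0 RPKM against 127 ± 31.2 (log2 fold change -1.19, limma adjusted p = 0.181), Slit2 was 4.64 ± 1.58 against 11.04 ± 1.21 (-1.12, 0.144), Efna5 was 10.8 ± 1.18 against 23.1 ± 6.87 (-1, 0.139) and Sema3c was 16.4 ± 4.85 against 33.3 ± 12.1 (-0.96, 0.207). Ntn4, Sema3d and Ntn1 overlapped between the populations, with log2 fold changes of -0.16, -0.20 and -0.81 (limma adjusted p = 0.883, 0.835 and 0.292). A fit over all 15 libraries called 12 members higher and 4 lower, where it called 5.38% of all genes higher and 3.91% lower, the lower members being Slit3, Slit2, Efna5 and Robo1 with limma adjusted p of 0.036, 0.0179, 0.0485 and 0.0413. The Slit3 level of the endothelial libraries was 24.0%, 44.1% and 71.3% of the Il33+ WAT-MSC mean in replicates 1, 2 and 3, beside stromal marker levels of 30.2%, 32.4% and 57.0% in those libraries. The part of stromal RNA in the endothelial values of Slit3 was not tested.

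Robo4, Efnb2 and Plxnd1 passed under each of the 15 alternatives. Nrp2 passed under all but the most abundant transcript, where its log2 fold change was 1.76 (limma adjusted p = 0.133). Ephb4 and Sema7a lost their call without any one of the Il33+ WAT-MSC libraries (limma adjusted p of 0.0554 to 0.0729 and 0.0515 to 0.0616), and Sema7a also without endothelial replicate 2 (0.0506). Plxna2 lost it without any library except endothelial replicate 1 (0.0749 to 0.163), Sema6a without any library except Il33+ replicate 2 (0.0507 to 0.204), and Slit3 gained a call as lower without endothelial replicate 3 (0.0431). The call of Plxna2 was also lost with the replicate number as a block (limma adjusted p = 0.0735) and with the lane as a covariate (0.0654), and that of Sema6a with the lane (0.0509) and with the most abundant transcript (0.148). Adding 0.1 in place of 1, or testing without the filter, also ended both calls (0.057 to 0.0711). Mural markers summed to 202.5 to 279.6 RPKM in endothelium and 14.1 to 21.9 in Il33+ WAT-MSC over 8 genes, lymphatic markers to 116.2 to 254.4 and 1.47 to 7.43 over 5 genes, and mesothelial markers to 49.0 to 172.2 and 32.3 to 99.7 over 6 genes. Leukocyte markers summed to 241.4 to 399.0 and 9.71 to 27.8 RPKM over 5 genes. In endothelium Cd74 led this sum, with 271.9, 263.5 and 185.6 RPKM, and Lyz2 was 7.59, 94.8 and 39.5. Cd68 was 0.53, 28.3 and 8.49 RPKM there, and Tyrobp was 0, 7.05 and 2.32. No marker of these lists was at 0 in a whole population, and the part of these cells in the higher members was not tested.

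Lung epithelial cells were compared with lung Il33+ MSC, and most guidance genes were lower in epithelium. Of the 36 members tested 24 passed, 4 higher and 20 lower, in a comparison that called 43% of all genes (18.5% higher and 24.4% lower). By role, 1 of 18 tested ligands was higher and 10 were lower, and 3 of 17 receptors were higher and 10 were lower. Of the lower members, Sema3d, Sema5a, Epha3, Epha4, Ephb2, Robo2 and Unc5c were under 1 RPKM in each epithelial library. They entered the test through the stroma alone and could only be called lower in epithelium. The median log2 fold change of the members was -0.94 against -0.13 over all genes, and with median-ratio scaling these medians became -0.75 and 0.15. Slit3 was 148 ± 20.5 RPKM in stroma and 5.77 ± 0.706 in epithelium (log2 fold change -4.45, SE 0.205, limma adjusted p = 7.91e-07). Ntn1 was 41.8, 39.9 and 26.7 RPKM in stroma and 0.26, 1.57 and 1.73 in epithelium (log2 fold change -4.14, SE 0.344, limma adjusted p = 1.26e-05). Sema3d, Efna5 and Ntn4 followed, with log2 fold changes of -3.27, -2.75 and -2.73 and limma adjusted p of 5.69e-06, 9.93e-05 and 2.38e-05, and no library overlapped for any of these 5 genes. Nrp1 was lower too, with 6.86 ± 2.10 against 24.1 ± 3.70 RPKM (log2 fold change -1.70, limma adjusted p = 0.000529).

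A few guidance genes were higher in epithelium. Sema3e, the ligand that binds plexin D1 without a neuropilin, was 15.4, 12.4 and 12.7 RPKM in epithelium and 0.17, 0.10 and 0.20 in lung Il33+ MSC (log2 fold change 3.64, SE 0.25, limma adjusted p = 4.25e-06). Plxnb1, a plexin that binds class 4 semaphorins, was 3.82, 9.52 and 8.36 RPKM against 0.06, 0.24 and 0.02 (log2 fold change 2.82, SE 0.342, limma adjusted p = 0.000133). Epha2, an Eph receptor common in epithelia, was 1.91, 4.13 and 5.11 RPKM against 0.19, 0.18 and 0.27 (log2 fold change 1.89, SE 0.321, limma adjusted p = 0.00111). None of these 3 genes overlapped between the populations. All 3 were under 1 RPKM in each lung Il33+ MSC library, so they entered the test through the epithelium alone and could only be called higher there. Plxna2 was higher by a smaller margin, 2.78 ± 1.21 against 0.813 ± 0.490 RPKM (log2 fold change 1.04, limma adjusted p = 0.0376). Plxnb2, the plexin with the highest mean over the 15 libraries, was 8.81, 23.1 and 21.7 RPKM in epithelium and 11.01, 14.98 and 12.4 in lung stroma, which overlapped (log2 fold change 0.35, limma adjusted p = 0.451). Without epithelial replicate 1 it was called higher (log2 fold change 0.77, limma adjusted p = 0.0162). Sema6a, Efnb2 and Ephb4 gave log2 fold changes of 0.55, 0.88 and -0.77 with limma adjusted p of 0.147, 0.0795 and 0.0525.

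**Figure D4:**
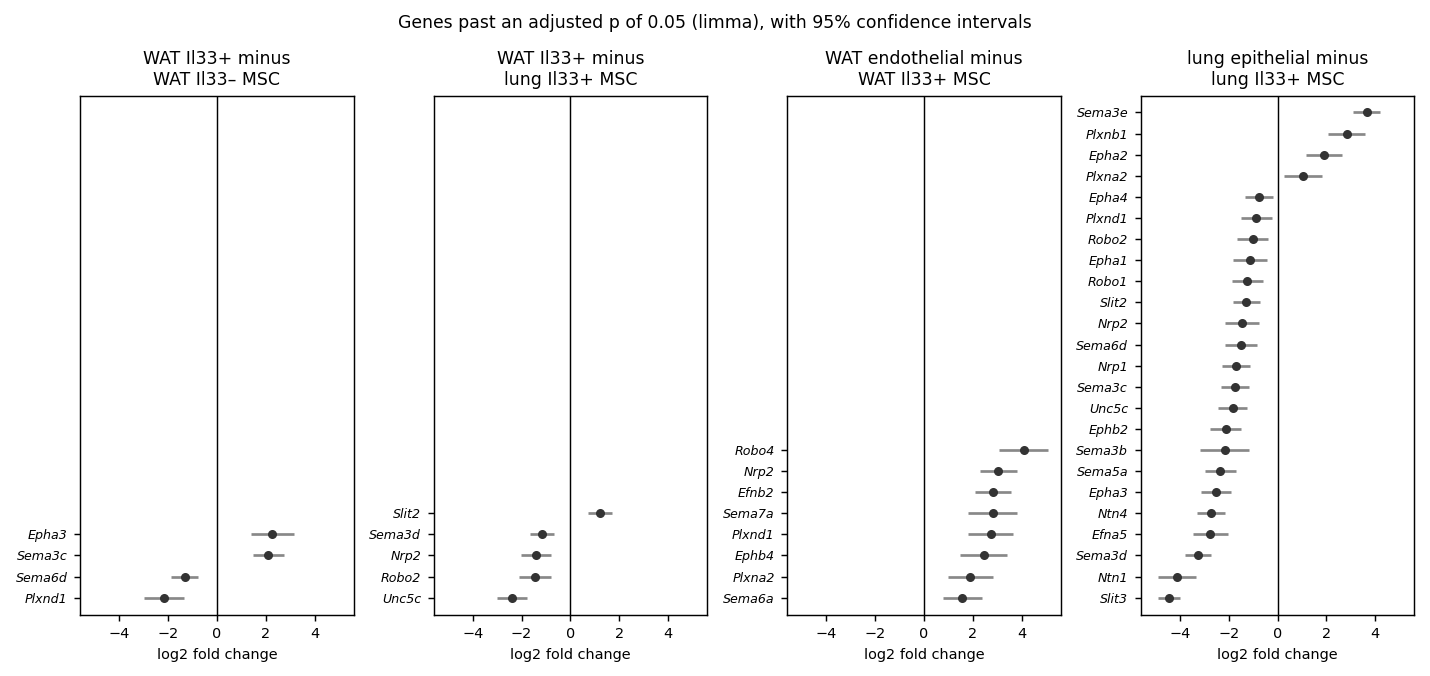
The log2 fold change of each gene with an adjusted p under 0.05 by limma is drawn with its 95% confidence interval in the 4 comparisons; genes to the right of 0 are higher in the first population of the panel title. The panels hold 4, 5, 8 and 24 genes, the 8 genes of the endothelial panel all lie to the right, and 20 of 24 in the epithelial panel lie to the left.

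Of the 24 calls, 19 held under all alternatives in which the gene could be tested. The others were Plxna2, Plxnd1, Robo2, Epha1 and Epha4, the last pair being named after their values were seen. Plxna2 lost its call without lung stromal replicate 1 or 3 or epithelial replicate 2 or 3 (limma adjusted p of 0.0894 to 0.134), and Plxnd1 without any library except epithelial replicate 3 (0.055 to 0.115). Robo2 lost it without lung stromal replicate 2 or epithelial replicate 2 or 3 (0.0538 to 0.066), Epha1 without lung stromal replicate 2 (0.0531), and Epha4 without lung stromal replicate 1 or 2 or epithelial replicate 2 or 3 (0.0899 to 0.109). The replicate number as a block ended the calls of Epha4 and Plxnd1 (limma adjusted p = 0.0539 and 0.0641), as did 1 fit over all 15 libraries (0.0688 and 0.0662). Median-ratio scaling ended those of Epha4, Plxnd1 and Robo2 (0.132, 0.0794 and 0.0617), quantile normalization that of Epha4 (0.053), and 0.1 in place of 1 those of Plxna2 and Plxnd1 (0.0534 and 0.0553). Efnb2 was called higher without lung stromal replicate 2 or epithelial replicate 1 (0.0443 and 0.045), with the block (0.0259), with the lane (0.0433) and with median-ratio scaling (0.0173), and Ephb4 was called lower with the lane and with quantile normalization (0.0471 and 0.0418). The 8 stromal markers summed to 106.5 to 199.3 RPKM in epithelium and 7418 to 9708 in lung Il33+ MSC. The 5 leukocyte markers summed to 833 to 1714 and 188 to 196, with none at 0 in either population and with their part not tested. In epithelium Lyz2 and Cd74 led this sum, with means of 1006 and 261.4 RPKM. These libraries do not tell whether leukocytes or epithelial cells carried the transcripts. Ptprc and Itgam, also among the 7 leukocyte markers chosen, were not listed. Cd68, Cd52 and Tyrobp had means of 12.1, 3.50 and 10.9 RPKM there.

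Set side by side, known partners were found in the same population for some pairs and in different ones for others. Efnb2 and Ephb4 were both highest in endothelium, at 19.5 ± 2.15 and 15.6 ± 6.73 RPKM, as were Sema6a and Plxna2 (35.8 ± 2.30 and 6.45 ± 1.87) and Sema3f and Nrp2 (3.46 ± 2.15 and 20.3 ± 1.91). Sema3e was at 13.5 ± 1.63 RPKM in lung epithelium, where Plxnd1 was at 1.02 ± 0.419, and Plxnd1 was at 13.7 ± 3.16 in WAT endothelium, where Sema3e was at 0.287. These 2 populations come from different organs. Slit3 was highest in stroma, Robo4 was highest in endothelium and Robo1, a broadly expressed Slit receptor, was at 4.05 ± 1.03 RPKM in Il33+ WAT-MSC, 3.39 ± 0.668 in Il33- WAT-MSC, 5.41 ± 1.37 in lung Il33+ MSC and under 2 RPKM in every endothelial and epithelial library.

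Sema3c was highest in Il33+ WAT-MSC at 33.3 ± 12.1 RPKM, where its co-receptor Nrp2 was at 1.62 ± 0.485 and Nrp1 at 18.7 ± 2.68. The netrin receptor Unc5b had means between 0.247 and 2.13 RPKM in the 5 populations, against 36.1 ± 8.2 RPKM for Ntn1 in lung stroma. Other netrin receptors were higher there, with Neo1 at 33.6 ± 1.64 RPKM and Unc5c at 4.40 ± 0.42 in lung Il33+ MSC. Neo1 was at 21.1 ± 4.95 RPKM in Il33+ WAT-MSC. Efnb1 and Ephb2 were both low, with the highest means at 5.73 RPKM in endothelium and 4.41 in lung stroma, and the endothelial Efnb1 values of 0.23, 4.73 and 12.2 spanned those of all other populations. Efna1 and Epha2 peaked at 2.21 RPKM in epithelium and 5.52 in endothelium. Sema3a, Sema4d and Plxnc1, the partners of Nrp1, Plxnb1 and Sema7a in other pairs, were not analysed here. RPKM is scaled by transcript length, but the RNA was amplified and values were summed over the transcripts of a symbol. Levels of different genes can thus be compared only roughly, and they do not measure protein.

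Other genes of the pathway were taken from 3 lists, of which 47 of 65 genes were listed. Of the co-receptors and adhesion partners, 11 of 17 were listed. Between Il33+ and Il33- WAT-MSC 0 of 9 tested passed by limma (1 at an unadjusted p under 0.05), 1 of 9 was higher in WAT than in lung Il33+ MSC, 1 of 11 was higher in endothelium, and 4 of 10 were higher and 5 lower in epithelium. Over all genes, 1.57% passed in the first of these comparisons, 2.5% were higher in WAT and 3.34% in endothelium, and 18.5% were higher and 24.4% lower in epithelium. Flrt3, an Unc5 ligand, was the one higher in WAT stroma (12.5 ± 5.48 against 0.487 ± 0.420 RPKM, adjusted p = 0.000537 by limma, log2 fold change 3.15), and L1cam, a neural adhesion molecule, was the one higher in endothelium (7.13 ± 2.29 against 0.417 ± 0.226 RPKM, adjusted p = 0.0112 by limma, log2 fold change 2.50). In epithelium Sdc1, Met and L1cam had log2 fold changes of 3.56, 2.29 and 1.29, while Flrt2, the netrin receptor Neo1 and Ntng2 had log2 fold changes of -3.98, -2.09 and -2.02, with limma adjusted p of 0.0167 or less. The L1cam call was lost without any one of the Il33+ WAT-MSC libraries or endothelial replicate 2 (limma adjusted p of 0.0522 to 0.0712), and in epithelium without replicate 2 or 3 of either population (0.0514 to 0.0605). L1cam was under 1 RPKM in Il33+ MSC of both tissues and could only be called higher in endothelium and epithelium. Flrt3 was under 1 RPKM in lung Il33+ MSC and Ntng2 in epithelium, so their calls too could go only 1 way.

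Of the VEGF ligands and receptors, which share neuropilins with the semaphorins, 8 of 9 were listed. Between Il33+ and Il33- WAT-MSC 0 of 6 tested passed by limma (2 at an unadjusted p under 0.05). Vegfd and Pgf, 2 of 7 tested, were lower in WAT than in lung Il33+ MSC, with Vegfd at 31.7 ± 10.6 and 125 ± 16.5 RPKM (adjusted p = 0.00132 by limma, log2 fold change -2.00). The call of Pgf was lost without Il33+ WAT-MSC replicate 3 or lung replicate 2 or 3 (limma adjusted p of 0.0529 to 0.0625). The VEGF receptors Flt4 and Flt1, 2 of 8 tested, were higher in endothelium, with log2 fold changes of 3.96 and 3.71 (limma adjusted p = 0.00162 and 0.00146), as the co-receptor Nrp2 was. Flt4 was 0.06, 0.46 and 0.74 RPKM in Il33+ WAT-MSC. It entered the test through the endothelium alone and could only be called higher there. In epithelium 4 of 7 were lower, led by Vegfd, Vegfc and Pgf (log2 fold changes of -3.89, -2.13 and -2.02). Over all genes, 3.5% were lower in WAT than in lung, 3.34% higher in endothelium and 24.4% lower in epithelium.

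Of the intracellular effectors that link receptors to the cytoskeleton, 28 of 39 were listed. Between Il33+ and Il33- WAT-MSC 0 of 26 passed by limma, and 1 had an unadjusted p under 0.05, where 1.57% of all genes passed. Srgap1, a Robo-binding GTPase activator, and the semaphorin mediator Dpysl3 were higher in WAT than in lung Il33+ MSC (log2 fold changes of 1.2 and 0.81), and the actin-binding Ablim3 was lower (-1.98). Srgap1 lost its call without Il33+ WAT-MSC replicate 3 or lung replicate 2 or 3 (limma adjusted p of 0.0623 to 0.0792), Dpysl3 without Il33+ WAT-MSC replicate 1 or 3 or lung replicate 1 or 2 (0.0964 to 0.173), and Ablim3 without Il33+ WAT-MSC replicate 1 or any one lung library (0.0539 to 0.093). Dpysl3 also lost it with the replicate block (0.066) and with 1 fit over all 15 libraries (0.0627), Ablim3 without the filter (0.058) and with 0.1 in place of 1 (0.0536), and both with the lane (0.0606 and 0.0535). Ablim3 and Rnd1 were higher in endothelium (3.44 and 2.20), 2 of 27 tested beside 3.34% of all genes, and Rnd1 lost its call without Il33+ WAT-MSC replicate 1 or 3 or endothelial replicate 2 (limma adjusted p of 0.0712 to 0.103). In epithelium 13 of 25 were lower and 0 higher by limma (13 and 1 at an unadjusted p under 0.05), led by Ablim1, Dpysl3 and Fyn with log2 fold changes of -3.34, -2.85 and -2.64, beside the 24.4% of all genes that were lower there.

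Unc50 was 6.86, 4.52 and 6.41 RPKM in Il33+ WAT-MSC and 20.5, 8.37 and 9.73 in Il33- WAT-MSC, without passing the test (log2 fold change -0.92, limma adjusted p = 0.324). The other members are given by their ranges: Plxna1 and Sema5a had means of 6.22 to 8.19 and 0.833 to 12.02 RPKM over the 5 populations, and Sema4b and Ephb3 means of 1.13 to 3.34 and 1.84 to 5.79. Epha1 and Epha4 did not exceed 3.70 and 5.03 RPKM in any library, and Sema6b did not exceed 2.94. Sema5a passed in 1 comparison, as lower in epithelium, and Plxna1, Sema4b and Ephb3 in none.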

How the data were processed

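RNA of 5 sorted populations (15 libraries, 3 of each) was amplified with a Nugen Ovation kit and sequenced by the authors, who aligned the reads to mm10 with TopHat2 in Partek according to the submitters' processing notes and the methods, and deposited RPKM for 12698 RefSeq transcripts with 2 decimals; versions and the filter on the list are not given in the sources used here. Read counts were not used here, so the depth of a single value is unknown and errors are SDs between libraries. Each of the 15 value columns was matched to a sample by its library name, and 0 were left without one. The design text describes cells from WAT alone, and lung was taken from the labels. The design had assumed values per gene, so RPKM was summed per symbol. Fold changes were fitted on log2(RPKM + 1), which understates the change of low genes, with lmFit and trended eBayes of limma 3.58.1 (R 4.3.3) over the 6 libraries of a comparison, for genes with at least 1 RPKM in at least 3 of them. A gene under 1 RPKM in 1 group entered the test through the other group alone and could only be called higher in that group. Examples were Robo4, Sema7a, Unc5c, Robo2, Flt4 and L1cam in Il33+ WAT-MSC. Others were Sema3e, Plxnb1 and Epha2 in lung Il33+ MSC, and Sema3d and Epha3 in lung epithelium. The p-values were adjusted over all genes tested by the Benjamini-Hochberg method at 0.05. An exact permutation test of 3 against 3 cannot go below 0.1 and was not used. The fit was tested on simulated data. Sums and figures were made in Python 3.11.15 (pandas 2.3.3, numpy 2.4.6, matplotlib 3.10.9). Alternatives were the replicate number as a block, the lane as a covariate, 1 fit over all 15 libraries, scaling by median ratios or by quantiles, 0.1 added in place of 1, no filter, a filter at 5 RPKM, the most abundant transcript, and each library left out with the same genes tested. Each called member kept its sign within both lanes. Named genes are the 5 largest changes in each direction past the threshold without overlap, the 5 highest members of a population, the highest of each family, members of fixed ligand and receptor pairs, and at most 3 genes in each direction of a pathway list; other members named were chosen after their values were seen. Of 5 Schwann and neural markers, 0 were listed. The members and lists were chosen with earlier results of these data known. Gene positions and promoters were taken from RefSeq on GRCm38.p6, the assembly that mm10 names, and 34 of 40 members had a promoter there.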

Additional observations from a re-analysis of the deposited data

How the results depend on the processing

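The 4 counts of called members were 4, 5, 8 and 24 for Il33+ against Il33- WAT-MSC, WAT against lung Il33+ MSC, endothelium against Il33+ WAT-MSC, and lung epithelium against lung Il33+ MSC. The first fell to 1 without the filter (Sema3c), with all 40 members tested. The second fell to 2 with the filter at 5 RPKM and to 3 with the most abundant transcript. The third rose to 16 with 1 fit over all 15 libraries, and the fourth fell to 11 with the filter at 5 RPKM, under which 14 members were tested. Without each library in turn the counts ranged from 1 to 4, 2 to 6, 4 to 7 and 20 to 27. Slit3 between Il33+ and Il33- WAT-MSC turned to a log2 fold change of -0.15 with quantile normalization and lay between -0.24 and 0.25 with each library left out (-0.06, -0.11 and -0.24 without Il33+ replicate 1, Il33+ replicate 3 and Il33- replicate 1). The cause of these changes was not tested unless fewer members were tested. The replicate number as a block gave 4, 5, 7 and 23 calls, without Plxna2 in the third and without Epha4 and Plxnd1 but with Efnb2 in the fourth. Correlations of the deviations of same-numbered libraries were 0.04 to 0.11, -0.07 to 0.06, -0.06 to 0.16 and 0.05 to 0.14, so that the numbers were not taken as a pairing, although every library correlated best with its own number in the first and the fourth comparison (6 of 6 each). Over 84 log2 fold changes of members and pathway genes, 1101 of 1231 alternative values kept their direction and side of the threshold, 108 lost a call, 18 gained one and 4 changed sign.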

Other observations

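Of the class 3 semaphorin genes listed in the data, 3 lie on chromosome 5 and peaked in 3 different populations. On GRCm38.p6 Sema3d is at chr5:12383161-12588953, Sema3e at chr5:14025276-14256689 and Sema3c at chr5:17574816-17730268. Sema3d was highest in lung Il33+ MSC, at 15.7 ± 1.15 RPKM, Sema3e in lung epithelium, at 13.5 ± 1.63, and Sema3c in Il33+ WAT-MSC, at 33.3 ± 12.1. In each case the 3 libraries of that population lay above the other 12. In Il33- WAT-MSC, by contrast, these 3 genes were at 1.96 ± 0.139, 0.190 and 6.72 ± 0.913 RPKM. The genes were set side by side after their values were seen. Of the Robo genes, Robo4 was highest in endothelium, at 21.3 ± 9.49 RPKM. Robo2 and Robo1 were both highest in lung Il33+ MSC, at 2.04 ± 0.531 and 5.41 ± 1.37 RPKM. The means of Robo1 lay between 1.31 and 5.41 RPKM in all 5 populations. In Il33+ WAT-MSC Robo1 was the only Robo gene above 1 RPKM in any library, beside 127 ± 31.2 RPKM of Slit3 and 11.04 ± 1.21 of Slit2.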
